A study of Mus musculus with 30 samples.

Results

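Mitochondrial ribosomal protein genes were taken as the genes whose mouse symbol is Mrpl or Mrps followed by a number, with pseudogene symbols left out. This gave 78 of the 48795 genes counted, of which 49 are named for the large and 29 for the small subunit. A further 5 pseudogene symbols were left out. All 78 passed the filter on low counts that left 16844 genes to test. The RNA came from primary brain endothelial cells of wild-type mice that had received no treatment, at 2, 6, 12, 18 or 24 months of age. Each age had 6 libraries, 3 from male and 3 from female mice, and the design treats them as biological replicates. The sources used here do not say whether a library holds the cells of 1 mouse or of several, or how the cells were isolated. They also do not say which 6 libraries were sequenced as single reads, so an effect of read layout cannot be told apart from age. The design followed expression over age by linear regression, with sex taken into account.

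Mitochondria keep their own ribosome, the mitoribosome, which translates the few proteins that mitochondrial DNA encodes, all of them subunits of the oxidative phosphorylation complexes. Its ribosomal RNAs are transcribed inside the mitochondrion, whereas every one of its proteins is encoded in the nucleus, translated in the cytosol and imported. Part of these proteins descend from bacterial ribosomal proteins, and the others were added during the evolution of mitochondria.

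Expression is given as CPM, the counts of a gene per 1000000 gene counts of its library, after scaling by the trimmed mean of M values (TMM). Gene counts per library ranged from 24140980 to 50464366, and 3 counts corresponded to 0.0594 to 0.124 CPM before that scaling. Intervals and limits of this kind cover counting error only, because the reads carried no molecular identifiers. All 10 endothelial markers had counts in every library, with a sum of 21262 to 28650 CPM. Genes with more exonic sequence than the median tested gene (3935 bp) held 44.2 to 61.0% of gene counts, and reads outside genes were 3.82 to 13.1% of all reads. Libraries are named by sex, age and a number from 1 to 3, which is a name only and pairs nothing. In bulk libraries fewer cells that express a gene and less of its RNA per cell cannot be told apart.

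All 78 genes had counts in every age group, and 74 of them had a mean above 10 CPM. Together they held 0.259 to 0.496% of the gene counts of a library. Levels of different genes are compared here only per kilobase (kb) of exonic sequence, and the median was 19.0 CPM per kb in the large and 12.7 CPM per kb in the small subunit. Mrpl28 (73.3 CPM per kb), Mrpl34 (62.1) and Mrpl2 (53.7) led the large subunit. Mrps21 (73.1 CPM per kb), Mrps24 (61.2) and Mrps12 (52.5) led the small one. These 6 genes have a bacterial counterpart, as do most of the 78 genes, Mrpl23 below included. At the other end stood Mrpl23 (0.812 CPM per kb) and Mrpl53 (0.435) in the large subunit, and Mrps22 (2.95) and Mrps36 (2.85) in the small one. The order depends on the length used, since the length of all exons of a gene can far exceed that of its principal transcript. Per kb of the principal transcript, Mrpl33 (134 CPM per kb) and Mrpl42 (126) came first in the large subunit, and Mrpl28 (94.7) followed. On that scale Mrps21 (111) and Mrps24 (90.2) still led the small subunit, and Mrpl53 was still the lowest of all.

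**Figure D1:**
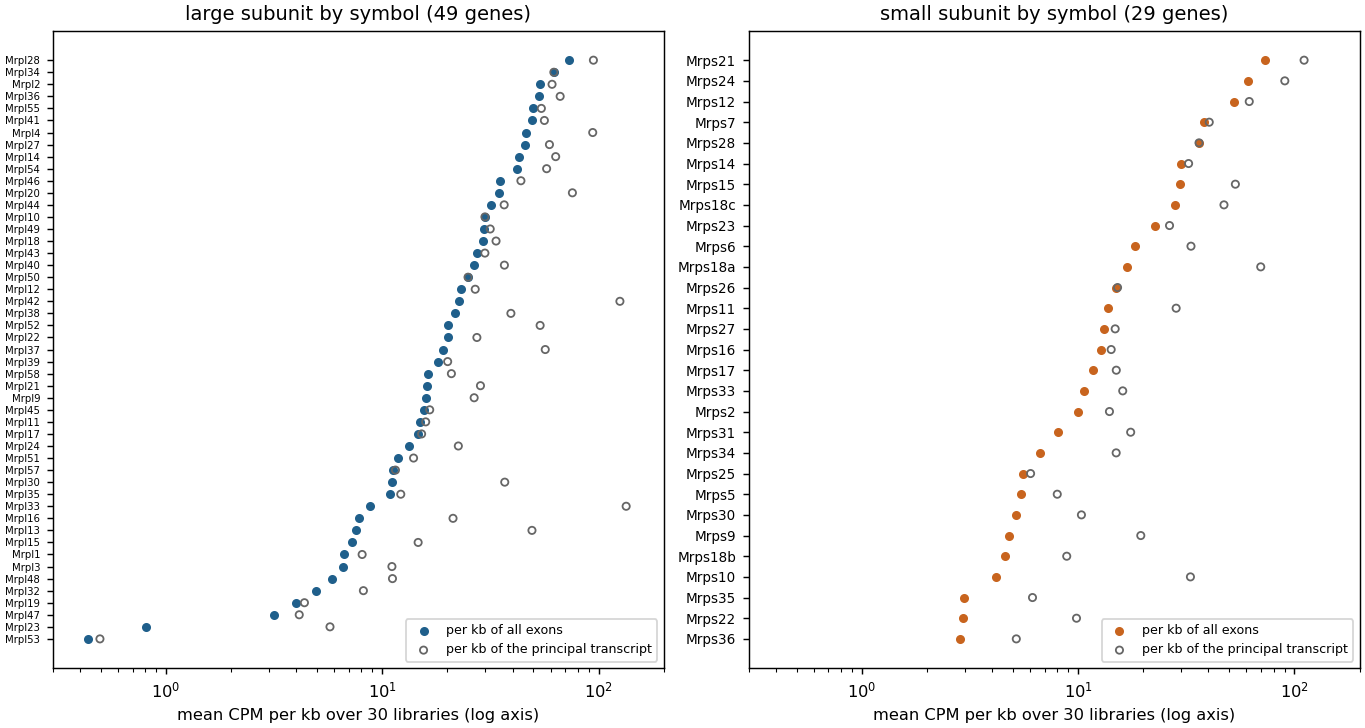
Mean CPM per kb over 30 libraries (log axis) of each of the 49 large-subunit and 29 small-subunit genes, with filled points for the length of all exons and open points for the principal transcript. Mrpl53 (0.435) and Mrpl23 (0.812) stand below the rest on the scale of all exons, and Mrpl33 and Mrpl42 lead on that of the principal transcript.

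Mrpl53 is a case apart, because 88.0% of its exonic bases also belong to exons of other genes, and reads that fall on 2 genes were not counted for either. It averaged 0.344 CPM, so its own changes were hardly measurable. Shared exonic bases also made up 77.8% of Mrps34, which overlaps Mapk8ip3 and Nme3, and 69.8% of Mrps25, which overlaps Nr2c2. The kit does not keep the strand, so reads of such a pair could not be assigned by strand either. In all, 33 of the 78 genes shared some exonic sequence with another gene, and 10 shared more than 20%.

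The summed level of the group had its highest age median at 6 months and its lowest at 18 months, and the 6-month range enclosed that of 2 months. The mean of the 3 male libraries was 3458 CPM at 2 months and 3513 CPM at 6 months. That of the 3 female libraries was 3447 and 4456 CPM. Summed over the 78 genes, the 2-month libraries had 3164, 3481 and 3622 CPM (lowest, median and highest), and the 6-month libraries had 3120, 3924 and 4913 CPM. At 12 months the values were 3170, 3683 and 4857 CPM. All 6 libraries of 18 months, with 2577, 2931 and 3017 CPM, lay below every library of 2, 6 and 12 months. The 24-month libraries had 2859, 3344 and 3438 CPM and overlapped those of 2 months. Of the 78 genes, 54 had their highest age mean at 6 months and 19 at 12 months, whereas 65 had their lowest at 18 months. The spread within an age was widest at 6 and 12 months, where 4 libraries stood above the other 26. These were female libraries 2, 1 and 3 of 6 months (4913, 4436 and 4019 CPM) and male library 1 of 12 months (4857 CPM).

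**Figure D2:**
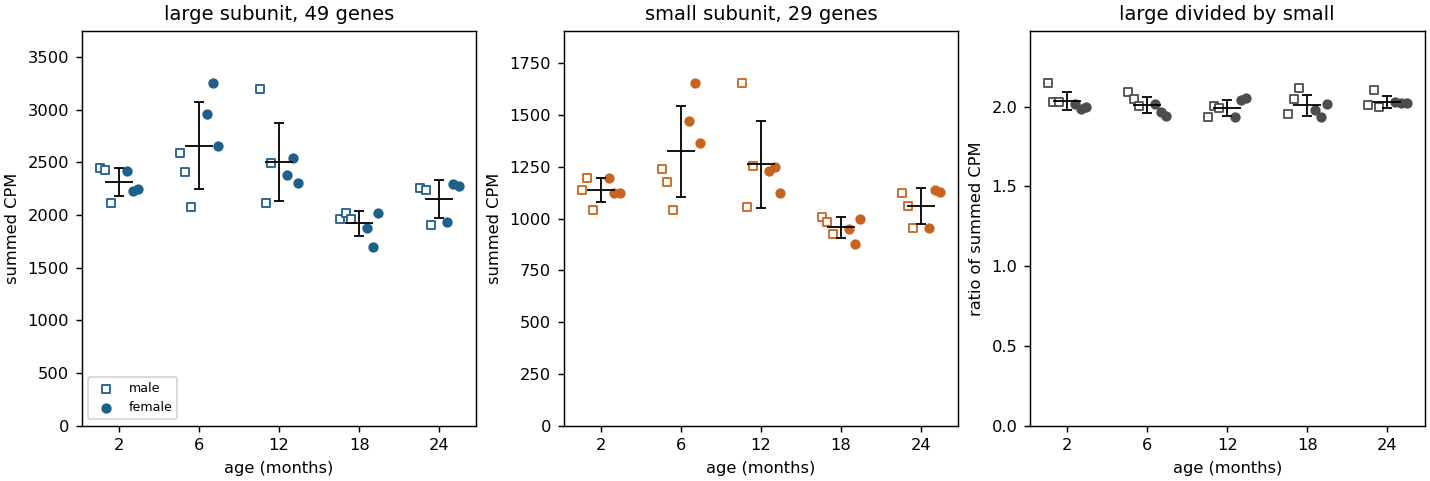
Summed CPM of the large-subunit genes (left) and small-subunit genes (middle) and their ratio (right) against age in months, with 1 point per library (open squares male, filled circles female) and the mean with its SD over 6 libraries. The sums fall at 18 months in both subunits, while the ratio stays between 1.93 and 2.15.

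The fall at 18 months was the clearest single contrast. Against 2 months, 23 of the 78 genes (29.5%) were lower and 0 higher at an adjusted p under 0.05 (edgeR quasi-likelihood test, Benjamini-Hochberg over all genes), where 8.7% of all tested genes were lower and 10.1% higher. At an unadjusted p under 0.05 there were 37 of the 78 genes, beside 32% of all tested genes in either direction. The median log2 change of the 78 genes was -0.25, beside -0.003 over all tested genes, and 72 of them had a negative fitted change. For 14 of the 78 genes (17.9%) every 18-month library lay below every 2-month library, which held for 3.78% of all tested genes, and for 0 members every one lay above (4.69% of all genes). The count ranged from 14 to 27 when each library was left out in turn. It was 14 without male library 2 of 2 months, 14 without female library 2 of 18 months and 15 without female library 1 of 2 months.

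Among the 23, Mrps34, a small-subunit protein without a bacterial counterpart, had the smallest adjusted p. Its values were 14.4, 16.2 and 16.7 CPM at 2 months and 7.91, 8.32 and 11.9 CPM at 18 months (lowest, median and highest library). All 18-month libraries lay below all 2-month libraries, and the log2 change was -0.84 (SE 0.15, adjusted p = 0.000184). Its reads come from the bases that it does not share with its neighbours. Mrpl28, the most abundant large-subunit gene per kb of exon, went from 86.4, 113 and 125 CPM to 66.3, 80.9 and 87.9 CPM, a log2 change of -0.49 (SE 0.11, adjusted p = 0.00236). Only the highest 18-month library reached the range of 2 months. Mrpl12, which corresponds to the L7/L12 stalk protein of bacteria and also binds the mitochondrial RNA polymerase, had 30.3, 37.0 and 42.7 CPM at 2 months and 20.997, 22.3 and 31.6 CPM at 18 months. Its log2 change was -0.60 (SE 0.14, adjusted p = 0.0026), and male library 2 of 18 months alone reached the 2-month range.

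Among the small-subunit genes that fell at 18 months were Mrps7, Mrps11 and Mrps12. Mrps7, the counterpart of the bacterial protein that starts assembly of the 3' domain of the small subunit, had 69.4, 84.6 and 94.8 CPM at 2 months and 60.6, 65.2 and 69.3 CPM at 18 months. The ranges came close without overlap, and the log2 change was -0.37 (SE 0.09, adjusted p = 0.00416). Mrps11, which lies on the platform of the small subunit near the messenger RNA exit, changed by -0.55 (SE 0.13, adjusted p = 0.00478), from 26.7, 33.0 and 37.2 CPM to 19.5, 22.1 and 25.9 CPM. Mrps11 overlaps Mrpl46 on the opposite strand, with 7.96% of its exonic bases shared. Mrps12, the counterpart of S12 at the decoding site, had 55.3, 58.8 and 62.1 CPM at 2 months and 39.1, 43.6 and 46.4 CPM at 18 months, again without overlap, and fell by 0.46 on the log2 scale (SE 0.13, adjusted p = 0.017).

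In the large subunit Mrpl52, which has no bacterial counterpart, had the largest fitted fall at 18 months of all 78 genes. It fell by 0.87 on the log2 scale (SE 0.25, adjusted p = 0.0139), from 21.8, 24.7 and 29.5 CPM to 9.11, 10.6 and 23.6 CPM. Male library 1 of 18 months lay inside the range of 2 months, and the other 5 lay below it. Mrpl57 changed by -0.68 (SE 0.17, adjusted p = 0.00514) and Mrpl34, the counterpart of bacterial L34, by -0.62 (SE 0.18, adjusted p = 0.0125). Mrpl36, the counterpart of bacterial L36, had 53.9, 61.5 and 67.9 CPM at 2 months and 37.5, 47.1 and 49.4 CPM at 18 months, without overlap, and changed by -0.43 (SE 0.12, adjusted p = 0.00987). Mrpl54 changed by -0.48 (SE 0.15, adjusted p = 0.0288), again with no overlap between the age groups. Mrpl44, which has the fold of a ribonuclease III, and Mrps24 fell too, with log2 changes of -0.40 (SE 0.11, adjusted p = 0.00935) and -0.41 (SE 0.14, adjusted p = 0.036). In both genes every 18-month library lay below every 2-month library.

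**Figure D3:**
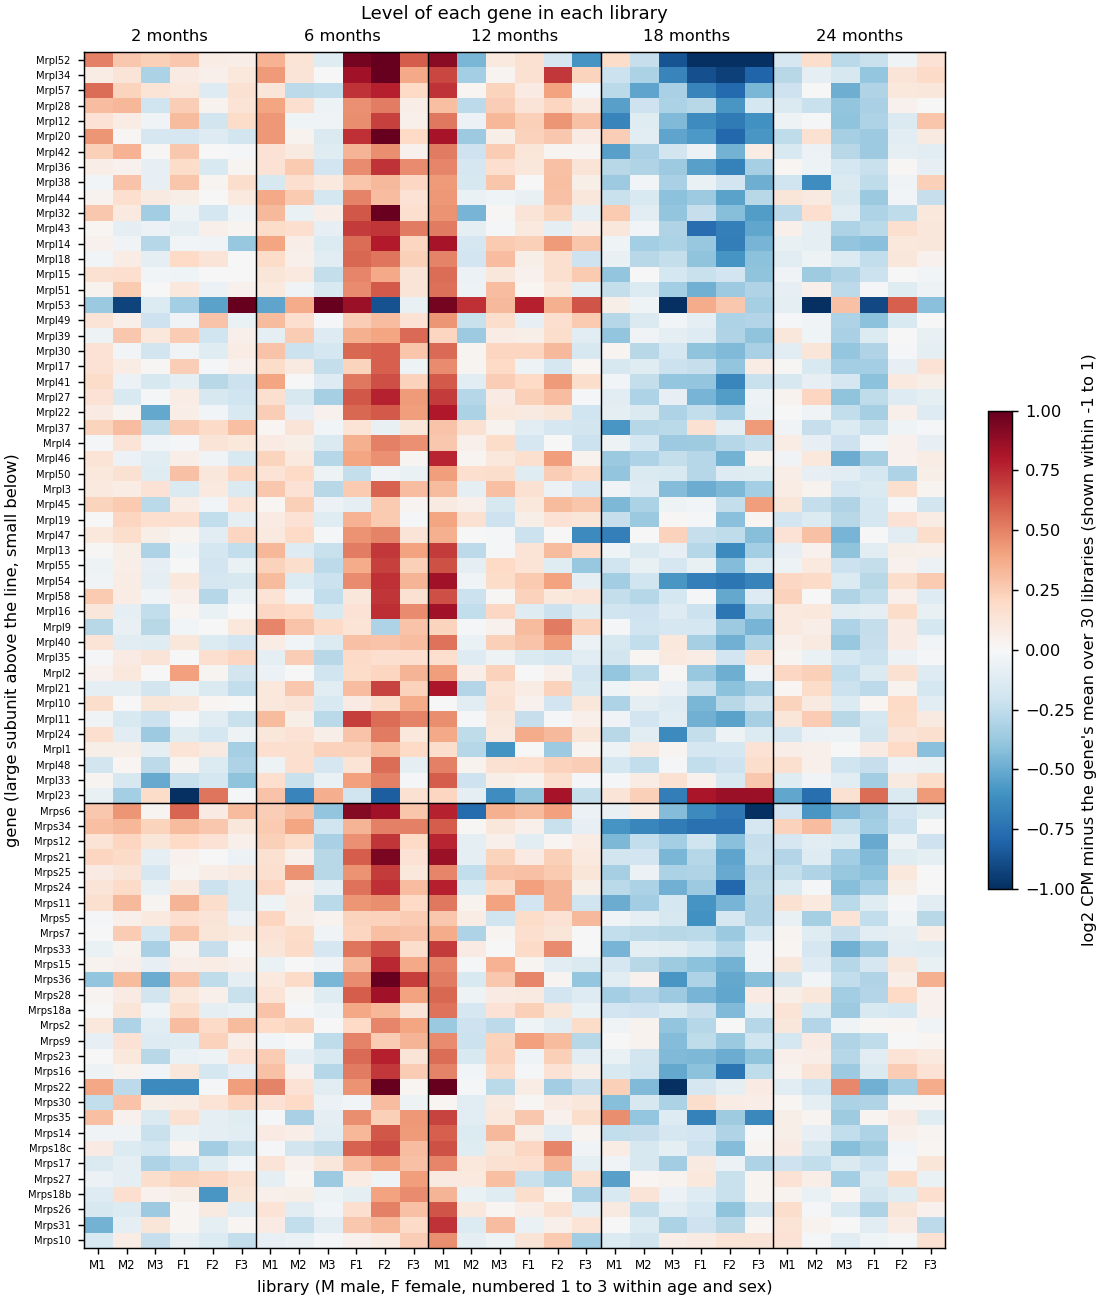
log2 CPM of each of the 78 genes minus its own mean, in each of the 30 libraries ordered by age and sex, with large-subunit genes above the line and small-subunit genes below, each ordered by fitted change over 22 months. Most genes are above their mean in female libraries 1 to 3 of 6 months and male library 1 of 12 months, and below it in the 18-month libraries.

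Regression over all ages gave falls and no rises. In edgeR, with sex as a covariate, the slope on age was negative and past the threshold for 13 of the 78 genes (16.7%). It was positive and past the threshold for 0, while 5.22% of all tested genes fell and 5.72% rose. DESeq2 gave 21 falling members, beside 7.32% of all genes, and 0 rising. Slopes are given as the log2 change over the 22 months from 2 to 24. The median was -0.27 over the 78 genes and 0.03 over all tested genes, and 75 of the 78 were negative. The 13 were 6 of the large and 7 of the small subunit.

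Mrps6, the counterpart of bacterial S6 on the small-subunit platform, had the largest fitted fall. It had 27.0, 32.5 and 39.6 CPM at 2 months, 20.1, 32.3 and 50.0 CPM at 6 months and 15.6, 33.5 and 45.2 CPM at 12 months. At 18 months it had 11.4, 18.3 and 27.6 CPM and at 24 months 17.7, 21.9 and 24.4 CPM. The 24-month libraries all lay below the 2-month libraries, and the slope was -0.83 (SE 0.20, adjusted p = 0.008). The gene spans chr16:92058270-92112227, plus strand (GRCm38), contains Slc5a3 on the same strand and shares 10.4% of its exonic bases with it.

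Mrpl28 (chr17:26123500-26126613, plus strand) had the smallest adjusted p. After 95.9, 121 and 141 CPM at 6 months and 82.6, 112 and 122 CPM at 12 months it had 75.6, 87.4 and 102 CPM at 24 months, and its slope was -0.50 (SE 0.12, adjusted p = 0.00496). The medians of 18 and 24 months were the lowest, and the 24-month range overlapped the lower end of the 2-month range. Mrps12 (chr7:28739641-28741820, minus strand) fell by 0.51 on the log2 scale (SE 0.13, adjusted p = 0.0114), with 37.5, 47.9 and 51.6 CPM at 24 months, all below the 2-month libraries. Mrpl42, particular to mitochondria, fell by 0.42 on the log2 scale (SE 0.11, adjusted p = 0.0126), from 81.8, 90.0 and 105 CPM at 2 months to 63.9, 75.2 and 79.2 CPM at 24 months, also without overlap. These 3 genes, Mrps6, Mrps12 and Mrpl42, were the members (3.85%) whose 24-month libraries all lay below those of 2 months, against 2.75% of all tested genes, a share near the background. For 0 members did all 24-month libraries lie above those of 2 months, against 3.74% of all tested genes.

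The other slopes that passed were smaller or closer to the threshold. In the small subunit they were Mrps7 (-0.32, SE 0.09, adjusted p = 0.0246), Mrps34 (-0.54, SE 0.17, adjusted p = 0.0336), Mrps25 (-0.44, SE 0.14, adjusted p = 0.0347), Mrps5 (-0.32, SE 0.10, adjusted p = 0.0369) and Mrps21 (-0.50, SE 0.16, adjusted p = 0.0399). Mrps5 and Mrps21 have bacterial counterparts, S5 and S21, and Mrps25 and Mrps34 have none. In the large subunit they were Mrpl38 (-0.37, SE 0.11, adjusted p = 0.0287), Mrpl44 (-0.36, SE 0.12, adjusted p = 0.0402) and Mrpl57 (-0.53, SE 0.18, adjusted p = 0.0486). Mrpl49 was the remaining large-subunit gene. Large fitted falls that did not pass were those of Mrpl52 (-0.73, SE 0.25, adjusted p = 0.0612) and Mrpl34 (-0.55, SE 0.21, adjusted p = 0.0904).

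Only 3 genes had a positive fitted slope, and none of them passed. Mrpl33, the counterpart of bacterial L33, had 44.5, 55.0 and 64.5 CPM at 2 months and 57.0, 65.7 and 76.0 CPM at 18 months, and a slope of 0.07 (SE 0.13, adjusted p = 0.774). Its 18-month libraries lay in the upper part of the 2-month range and above it. Mrps10, the counterpart of bacterial S10, had 0.09 (SE 0.10, adjusted p = 0.574) and Mrpl23 had 0.24 (SE 0.27, adjusted p = 0.616). All 3 genes have more exonic sequence than the median tested gene.

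The number of falling slopes changed when single libraries were left out and when measures of library composition were covariates. It ranged from 4 to 16 when each library was left out in turn. It was 4 without male library 2 of 2 months, 5 without female library 1 of 24 months, and 7 without female library 1 or 2 of 6 months, male library 3 or female library 2 of 18 months, or male library 3 of 24 months. It was 8 without male library 1 of 6 months or without male library 1 or female library 1 of 18 months. The slopes of Mrpl28, Mrps6, Mrps12 and Mrpl42 passed in all 30 of these fits. That of Mrpl57 passed in 8, and those of Mrpl44 and Mrps21 in 15 each. With the share of reads outside genes as a covariate, 0 of the 78 slopes fell by edgeR (3 at an unadjusted p under 0.05), while 0.819% of all genes fell. When the share of counts in long genes was the covariate, 4 fell (Mrpl28, Mrps6, Mrps12 and Mrpl42), beside 5.2% of all genes. Without the 4 libraries with the lowest share of counts in long genes, which also have the highest sums of the 78 genes, 10 fell (6.63% of all genes), and DESeq2 gave 21 (7.32%).

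Promoters of the genes were read from RefSeq (GRCm38.p6), as 250 bases before and 50 bases after the start of transcription, and 69 of the 78 genes had an entry. Motifs were searched on both strands: CCGGAAG for the ETS family, to which GABPA belongs, AAGATGGC for YY1 and the consensus of NRF1, 3 factors known for nuclear genes of mitochondria. The ETS motif was found in 26 of 69 genes (37.7%), beside 18.2% of the tested genes with an entry. The NRF1 motif was found in 13 (18.8%), beside 10.4%, and the YY1 motif in 12 (17.4%), beside 4.78%. At least 1 of the 3 was found in 43 genes (62.3%), beside 29.5% of tested genes, and CCAAT in 27 (39.1%), beside 42.2%. Over all 27025 genes listed, the shares were 9.93% for the ETS motif, 5.19% for NRF1, 3.19% for YY1 and 41.1% for CCAAT. The median log2 change at 18 months was -0.31 in the genes with the YY1 motif and -0.24 in those without it, and it was -0.23 and -0.24 with and without the ETS motif. It was -0.25 and -0.24 for NRF1, and -0.26 and -0.24 for CCAAT. The E-box CACGTG, also searched, was found in 5 genes (7.25%), beside 11.2% of tested genes, with medians of -0.32 and -0.23. These differences were not tested. A match describes the sequence and does not show that a factor binds there.

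The promoters below belong to the 4 genes with the smallest adjusted p of the slope, to Mrpl12 as a gene with the NRF1 motif, and to Mrpl33, which had a positive slope. Each is written from 5' to 3' on the strand of its gene, and capitals mark the ETS, NRF1 and YY1 motifs.
Mrpl28 (chr17:26123253-26123552, plus strand): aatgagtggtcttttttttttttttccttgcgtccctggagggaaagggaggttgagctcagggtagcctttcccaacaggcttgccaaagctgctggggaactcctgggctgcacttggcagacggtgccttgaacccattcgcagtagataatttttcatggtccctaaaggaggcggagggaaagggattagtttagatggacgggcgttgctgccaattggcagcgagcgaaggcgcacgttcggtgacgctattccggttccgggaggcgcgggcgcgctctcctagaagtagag
Mrps6 (chr16:92058086-92058385, plus strand): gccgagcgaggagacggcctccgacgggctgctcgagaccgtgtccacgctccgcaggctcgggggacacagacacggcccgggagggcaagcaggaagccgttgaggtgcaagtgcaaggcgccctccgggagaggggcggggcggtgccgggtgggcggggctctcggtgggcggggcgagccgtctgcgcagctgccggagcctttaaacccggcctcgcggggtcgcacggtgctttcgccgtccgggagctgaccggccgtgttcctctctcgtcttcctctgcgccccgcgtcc
Mrps12 (chr7:28741772-28742071, minus strand): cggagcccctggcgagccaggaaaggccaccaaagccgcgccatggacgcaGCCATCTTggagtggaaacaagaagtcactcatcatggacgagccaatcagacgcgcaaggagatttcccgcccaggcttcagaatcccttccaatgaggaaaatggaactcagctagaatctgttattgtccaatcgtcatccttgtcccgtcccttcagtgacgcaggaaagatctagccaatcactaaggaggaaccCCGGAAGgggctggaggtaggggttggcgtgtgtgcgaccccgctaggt
Mrpl42 (chr10:95501900-95502199, minus strand): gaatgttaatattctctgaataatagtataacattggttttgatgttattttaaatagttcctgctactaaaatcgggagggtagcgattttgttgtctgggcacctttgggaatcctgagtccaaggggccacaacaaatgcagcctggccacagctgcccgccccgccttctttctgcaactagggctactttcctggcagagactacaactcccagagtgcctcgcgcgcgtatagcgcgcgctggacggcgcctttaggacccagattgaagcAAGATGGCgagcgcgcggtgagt
Mrpl12 (chr11:120484387-120484686, plus strand): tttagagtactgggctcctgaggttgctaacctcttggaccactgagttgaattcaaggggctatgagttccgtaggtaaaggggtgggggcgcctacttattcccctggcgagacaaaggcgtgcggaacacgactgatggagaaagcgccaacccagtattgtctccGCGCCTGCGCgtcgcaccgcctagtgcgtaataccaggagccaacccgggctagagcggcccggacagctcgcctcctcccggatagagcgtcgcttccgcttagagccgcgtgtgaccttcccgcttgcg
Mrpl33 (chr5:31613701-31614000, plus strand): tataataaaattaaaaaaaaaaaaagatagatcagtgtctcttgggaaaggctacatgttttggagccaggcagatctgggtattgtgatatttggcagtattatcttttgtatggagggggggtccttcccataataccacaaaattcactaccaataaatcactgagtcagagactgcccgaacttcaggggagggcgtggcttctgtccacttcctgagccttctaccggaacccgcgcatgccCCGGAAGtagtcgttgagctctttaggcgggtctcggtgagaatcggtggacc
Mrps12 holds 2 of the motifs, YY1 and ETS, and its start lies 172 bases from that of Sars2, the mitochondrial seryl-tRNA synthetase, on the other strand. Mrpl42 holds the YY1 motif, Mrpl33 the ETS motif and Mrpl12 the NRF1 motif. In the windows of Mrpl28 and Mrps6 none of these letters was found. In all, 23 of the 78 genes have another gene that starts on the opposite strand within 1000 bases or overlaps their start. An example is Mrpl36, which overlaps the start of Ndufs6, a subunit of complex I.

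At 6 months the fitted changes against 2 months were mostly positive and few passed. Of the 78 genes 2 were higher and 0 lower, while 4.07% of all tested genes were higher and 4.69% lower. The median log2 change was 0.20, beside -0.02 over all genes, and 71 fitted changes were positive. Mrps17, the counterpart of bacterial S17, had 60.5, 68.4 and 73.6 CPM at 2 months and 77.5, 87.1 and 99.996 CPM at 6 months. All 6 libraries of 6 months lay above all those of 2 months, and the log2 change was 0.37 (SE 0.09, adjusted p = 0.012). Mrpl11, the counterpart of the L11 protein at the factor-binding stalk, had 40.5, 43.3 and 47.0 CPM and 39.3, 62.8 and 76.6 CPM. The 6-month range enclosed that of 2 months, and the log2 change was 0.47 (SE 0.13, adjusted p = 0.029). Mrpl1, named here after its values were seen, was the only other gene with all 6-month above all 2-month libraries, so this held for 2 of 78 (2.56%) against 1.48% of all genes. The count at 6 months went from 1 to 16 when single libraries were left out, with 16 without male library 1 of 12 months and 14 without male library 3 of 6 months. It was 7 without male library 2 of 6 months or female library 3 of 12 months, and 6 without male library 1 of 2 months or male library 3 of 12 months. It was 5 without male library 2 of 12 months, and 1 without female library 2 or 3 of 2 months or female library 1 or 3 of 6 months. With the share of counts in long genes as a covariate it was 0 by edgeR (5 at an unadjusted p under 0.05 in either direction), while 2.4% of all genes were higher. Leaving out the 4 libraries with the lowest share of counts in long genes removes all 3 female libraries of 6 months, which have the highest sums of that age, so fewer higher calls follow from the choice. It gave 0 (4 at an unadjusted p under 0.05 in either direction), beside 0.687% of all genes. The median log2 change of the 78 genes was -0.01 with that covariate and 0.05 without those 4 libraries. DESeq2 gave 7 higher members (5.62% of all genes), and the covariate of reads outside genes gave 9 (5.15%).

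At 12 months Mrps17 alone passed, with 70.3, 84.0 and 105 CPM and a log2 change of 0.36 (SE 0.09, adjusted p = 0.0257) against 2 months, while 1.38% of all tested genes were higher and 1.56% lower. The median change of the 78 genes was 0.15. Leaving out a library gave 0 to 2 genes. It gave 0 without male library 3, female library 1 or female library 2 of 2 months, and without male library 1 or female library 2 of 12 months. It gave 2 without female library 2 of 6 months or male library 2 of 12 months. Mrpl48, named after its values were seen, was the single gene whose 12-month libraries all lay above those of 2 months, 1.28% of the 78 against 0.986% of all genes, and none had them all below (1.13% of all genes).

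At 24 months no member passed against 2 months in the edgeR test, although 3.48% of all tested genes were lower and 4.86% higher. At an unadjusted p under 0.05 there were 7 of the 78 members, beside 21.2% of all genes, and DESeq2 called 2 lower, Mrpl28 and Mrps6, beside 5.39% of all genes. Without male library 3 of 2 months edgeR called 1. The median log2 change was -0.10, and 56 of the 78 fitted changes were negative. Mrps6, at -0.61 (SE 0.22, adjusted p = 0.0809), and Mrpl28, at -0.32 (SE 0.11, adjusted p = 0.0719), were nearest the threshold among the genes described. With the share of counts in long genes as a covariate, and also without the 4 libraries with the lowest such share, 5 members were lower (6.41 and 5.41% of all genes). They were Mrpl28, Mrpl42, Mrps12, Mrps21 and Mrps6 in both. When the share of reads outside genes was a covariate, 0 members were lower (3 at an unadjusted p under 0.05), beside 2.08% of all genes.

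**Figure D4:**
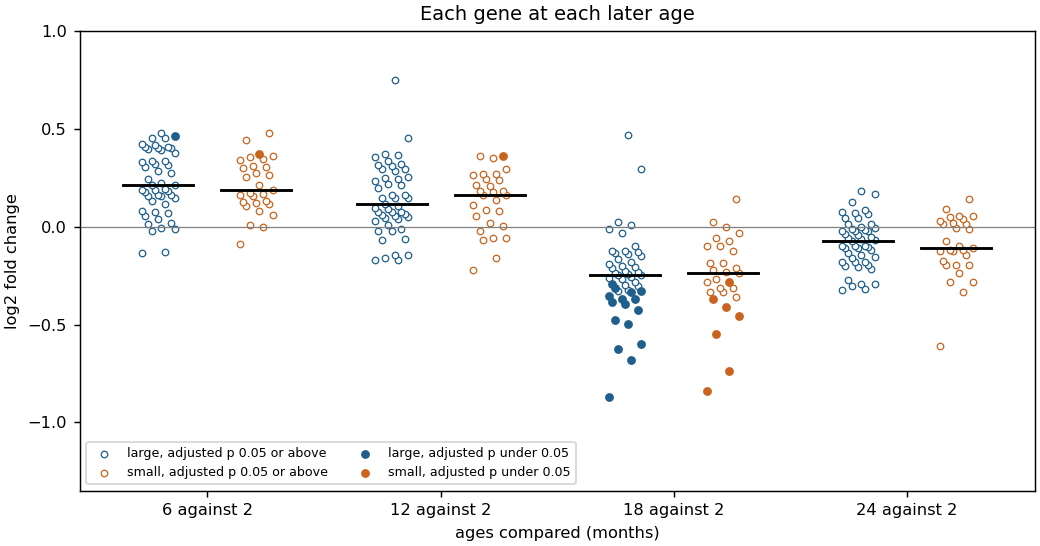
log2 fold change of each of the 78 genes at 6, 12, 18 and 24 months against 2 months, with large-subunit genes at the left and small-subunit genes at the right of each position, filled where the edgeR adjusted p is under 0.05, and a bar at the median. The medians are near 0.2 at 6 months and near -0.25 at 18 months in both subunits.

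In the main fit the course over the ages departed from a straight line for part of the genes. A joint test of the curved terms passed for 37 of the 78 genes (47.4%), 26 of the large and 11 of the small subunit, and for 17.7% of all tested genes. The smallest adjusted p in this test were those of Mrpl54 (0.00282), Mrpl36 (0.00324), Mrps17 (0.00341) and Mrpl12 (0.00345). Mrpl54 had 28.9, 42.2 and 55.6 CPM at 6 months, 20.3, 21.8 and 29.2 CPM at 18 months and 27.7, 38.1 and 40.2 CPM at 24 months, with 29.8, 32.2 and 36.0 CPM at 2 months, so that the values of 18 months were the lowest. Mrpl36 had 52.6, 77.4 and 99.1 CPM at 6 months and 51.3, 57.2 and 60.7 CPM at 24 months, with 18 months again the lowest age. The count of falling slopes depended on the ages in the fit. Without the 18-month libraries 2 members fell (Mrpl28 and Mrps6), beside 2.00% of all genes. Without the 2-month libraries 23 did, beside 3.66% of all genes. Single 18-month libraries carried much of the curved test, with 14, 16 and 20 genes without female library 2, 1 and 3 of 18 months. Without female library 2 of 2 months it gave 24 genes. The curved test gave 3 genes with the share of reads outside genes as a covariate and 6 with the share of counts in long genes. It gave 14 without the 4 libraries with the lowest share of counts in long genes. The share of all genes in this test is given for the main fit only.

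Large and small subunit moved together. The ratio of summed large-subunit to small-subunit CPM was 2.01 ± 0.052 (SD, n = 30 libraries) and ranged from 1.93 to 2.15. By age it was 2.03 ± 0.059 at 2 months, 2.01 ± 0.053 at 6, 1.99 ± 0.050 at 12, 2.01 ± 0.065 at 18 and 2.03 ± 0.037 at 24 months (SD, n = 6 each). The age means differed by less than the SD over the 30 libraries. The median slope was -0.28 in the large and -0.26 in the small subunit, and the median change at 18 months was -0.25 and -0.24. No test was made between the subunits, because genes of 1 ribosome measured in the same libraries are not replicates.

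The symbols do not always give the place of a protein. Structures of the mammalian mitoribosome put Mrps30 and Mrps18a in the large subunit, and Mrps36 is now known as a component of the 2-oxoglutarate dehydrogenase complex. With these places the ratio was 2.30 and the median slopes were -0.27 and -0.25. Mrps30 had 28.8, 36.6 and 41.6 CPM at 2 months and 25.3, 33.1 and 38.4 CPM at 18 months, which overlap, and a slope of -0.23 (SE 0.09, adjusted p = 0.0933). Mrps36 was among the least abundant genes, with 2.47, 3.10 and 4.34 CPM at 2 months and 2.33, 2.70 and 3.59 CPM at 18 months, and a slope of -0.30 (SE 0.23, adjusted p = 0.423).

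The 3 paralogs Mrps18a, Mrps18b and Mrps18c are related to 1 bacterial protein, S18, and occupy different places in the mitoribosome, where Mrps18c takes the place of S18. Their levels were far apart: 27.99 CPM per kb of exon for Mrps18c, 16.7 for Mrps18a and 4.57 for Mrps18b. None of the slopes passed, at -0.27 (SE 0.11, adjusted p = 0.113) for Mrps18a, -0.09 (SE 0.13, adjusted p = 0.695) for Mrps18b and -0.19 (SE 0.15, adjusted p = 0.465) for Mrps18c. Mrps18a had 57.0, 60.0 and 68.7 CPM at 2 months and 44.9, 53.1 and 57.1 CPM at 18 months, where only the top of the later range reached the earlier one. Mrps18c had 23.2, 26.5 and 31.2 CPM and 21.8, 27.0 and 31.1 CPM, which overlap almost fully. Mrps18b stayed between 6.31 and 13.1 CPM in all libraries.

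Of the 45 genes with a bacterial counterpart 6 fell with age (13.3%) and 14 were lower at 18 months (31.1%), with median log2 changes of -0.27 and -0.26. Of the 31 particular to mitochondria, which include Mrps18a and Mrps18b as added copies, 7 fell (22.6%) and 9 were lower at 18 months (29.03%), with medians of -0.27 and -0.24. At 6 months 2 of the first and 0 of the second class were higher by edgeR, with 20 and 7 at an unadjusted p under 0.05. The difference between the classes was not tested, and over all tested genes 5.22% fell with age and 8.7% were lower at 18 months. Mrpl55 and Mrps36 were placed in neither class.

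Neither sex nor the combination of sex and age gave a call. In the test of sex 0 of the 78 genes passed in edgeR, with 1 at an unadjusted p under 0.05, and 0 in DESeq2, while 0.101% of all tested genes passed. In the test of a different slope in the sexes 0 members passed in either tool, with 0 at an unadjusted p under 0.05 in edgeR and 1 in DESeq2, and 0% of all tested genes passed in edgeR. In separate fits the median slope was -0.17 over the 15 male libraries and -0.36 over the 15 female libraries. In the male fit 0 members fell (8 at an unadjusted p under 0.05), beside 0.383% of all genes. In the female fit 1 member, Mrps12, fell (25 at an unadjusted p under 0.05), beside 1.58% of all genes. At 6 months the 3 female libraries had 4019 to 4913 CPM over all 78 genes and the 3 male libraries 3120 to 3830. At the other ages the ranges of the sexes overlapped.

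Library composition moved with these levels. The 4 libraries with the highest sums were also the 4 with the lowest share of counts in long genes, 44.2 to 47.6%. The 18-month libraries had 54.9 to 61.0% of counts in long genes and 7.99 to 13.1% of reads outside genes, beside 51.9 to 56.8% and 3.82 to 6.61% at 2 months. The library with the lowest sum, female library 2 of 18 months, had the highest value of both measures, and 34 of the 78 genes had their lowest level there. With the share of reads outside genes as a covariate, 0 members were lower at 18 months by edgeR (2 at an unadjusted p under 0.05) and the median change was -0.03. In that fit 0.41% of all genes were lower. With the share of counts in long genes as a covariate, 9 members were lower, 1 was higher (Mrpl33) and the median was -0.07, beside 9.43% of all genes lower. Since the 18-month libraries have high values of both measures, age and these measures are only partly separable here, and their part in the fall was not tested beyond these fits.

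**Figure D5:**
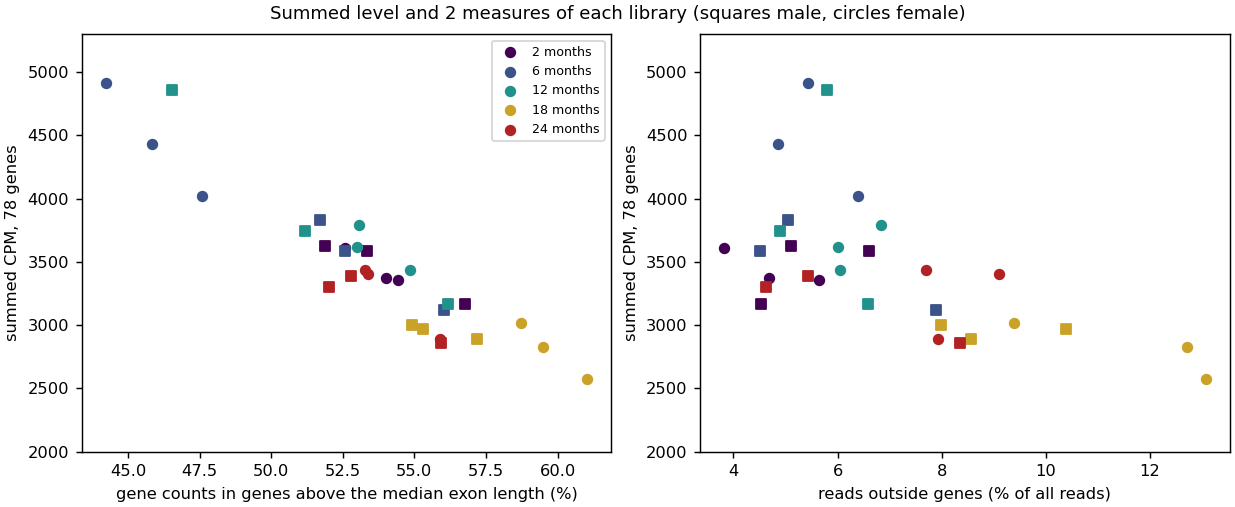
Summed CPM of the 78 genes in each of the 30 libraries against the share of gene counts in genes above the median exon length (left, percent) and against reads outside genes (right, percent of all reads), colored by age. The vertical axis does not start at 0. The 4 libraries with 4019 to 4913 CPM have the lowest shares at the left, and the 18-month libraries lie at the lower right of both plots.

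The levels were also set beside those of genes of like length. Of the 78 genes 55 have no more exonic sequence than the median tested gene. Of these 55, 11 fell with age (20%) and 20 were lower at 18 months (36.4%), with a median change at 18 months of -0.29. Over all 8401 tested genes of that length class 6.69% fell with age, 11.2% were lower at 18 months, and the median there was -0.08. Of the 23 longer members 2 fell with age and 3 were lower at 18 months, with a median of -0.19. Over the 8399 longer tested genes 3.76% fell, 6.23% were lower and the median was 0.06.

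Marker genes of other cells differed between the ages as well. The 6 markers of choroid plexus and ependyma (Ttr, Folr1, Kcne2, Kl, Foxj1 and Ccdc153) had counts in every library. Their sum was 904, 2954 and 4259 CPM at 2 months (lowest, median and highest) and 157, 959 and 1436 CPM at 18 months, and 4 of 6 were lower at 18 months. The 5 erythroid markers (Hba-a1, Hba-a2, Hbb-bs, Hbb-bt and Alas2) also had counts in every library. Their sum was 436, 602 and 1038 CPM at 2 months, 792, 1339 and 2730 CPM at 6 months and 219, 359 and 1088 CPM at 18 months, and 5 of 5 were higher at 6 months. In the 4 libraries with the highest mitoribosomal sums the choroid plexus sum was 1107 to 6942 CPM, beside a median of 1314 CPM over all 30 libraries. The erythroid sum in these 4 was 1211 to 2730 CPM, beside a median of 835 CPM. The slope on age passed for 3 of the 6 choroid plexus and ependyma markers. Of the other marker lists, 4 of 8 pericyte and 2 of 6 tested smooth muscle genes rose with age, 2 of 7 astrocyte and 1 of 10 endothelial genes fell, and the erythroid, fibroblast, oligodendrocyte, neuron and microglia and macrophage lists had 0 slopes past the threshold. At 18 months 3 of 7 astrocyte, 2 of 6 fibroblast and 2 of 8 microglia and macrophage markers were lower than at 2 months, and of the endothelial markers 1 was lower and 1 higher. At 6 months 3 of 10 endothelial markers were lower, as was 1 marker each of the pericyte, smooth muscle, astrocyte, microglia and choroid plexus lists. At 12 months 4 of 8 microglia, 2 of 7 astrocyte and 2 of 6 fibroblast markers were lower. No marker was at 0 in all libraries, and the neuron markers summed to 1.77 to 10.08 CPM. The part of these cells in the levels of the mitoribosomal genes was not tested.

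Calls among other genes of mitochondrial translation are to be read beside the shares over all tested genes. Of all tested genes 5.22% fell and 5.72% rose with age, and 17.7% passed the test of curved terms. At 18 months 8.7% were lower and 10.1% higher. At 6 months 4.07% were higher and 4.69% lower, and at 12 months 1.38% were higher. Of the 5 mitoribosomal proteins without an Mrp symbol, Dap3, Ptcd3, Chchd1, Aurkaip1 and Gadd45gip1, 0 slopes passed in edgeR, with 2 at an unadjusted p under 0.05. The test of curved terms passed for 3 of the 5, and Chchd1 was higher at 12 months (0.68, SE 0.18, adjusted p = 0.0374). Aurkaip1 was lower at 18 months, with a log2 change of -0.44 (SE 0.11, adjusted p = 0.00544). At that age Gadd45gip1 and Chchd1 had fitted changes of -0.33 (SE 0.14, adjusted p = 0.0946) and -0.39 (SE 0.18, adjusted p = 0.133), and Dap3 had -0.14 (SE 0.11, adjusted p = 0.388). Ptcd3, a pentatricopeptide protein of the small subunit, had a positive one, 0.23 (SE 0.13, adjusted p = 0.208).

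Of 26 factors that assemble the mitoribosome or modify its RNA, 1 fell with age, the RNA methyltransferase Nsun4 (-0.31, SE 0.10, adjusted p = 0.0495), and 2 were lower at 18 months. The median slope was -0.11. Among 14 tested translation factors 1 rose, Guf1, a GTPase related to bacterial LepA (0.45, SE 0.14, adjusted p = 0.0374), and 0 fell. Of these 14, 1 was higher (Guf1) and 2 lower at 18 months, and 2 were higher at 6 months. The 20 mitochondrial aminoacyl-tRNA synthetases and their amidotransferase partners had 0 slopes past the threshold in edgeR (4 at an unadjusted p under 0.05) and a median of -0.02. Of 12 genes of mitochondrial transcription and RNA processing 2 fell: Mtpap, the mitochondrial poly(A) polymerase (-0.39, SE 0.09, adjusted p = 0.00458), and Hsd17b10, a subunit of mitochondrial RNase P (-0.49, SE 0.15, adjusted p = 0.0351). At 18 months 2 of the 12 were lower, the same 2. Of 9 nuclear regulators 0 slopes passed in edgeR, with 0 at an unadjusted p under 0.05. Of these, 2 are named after their values were seen: Gabpa, the ETS factor named above, was lower at 6 months (-0.93, SE 0.22, adjusted p = 0.00958), and Esrra, an orphan nuclear receptor, was higher (0.67, SE 0.20, adjusted p = 0.0349).

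The 2 ribosomal RNAs of the mitoribosome were higher than at 2 months at every later age. mt-Rnr2, the large ribosomal RNA, had 1034, 1303 and 2174 CPM at 2 months and 1603, 3348 and 5898 CPM at 18 months, a log2 change of 1.32 (SE 0.22, adjusted p = 8.0e-05). mt-Rnr1, the small one, had 68.1, 84.6 and 135 CPM and 145, 575 and 1124 CPM, a log2 change of 2.70 (SE 0.31, adjusted p = 5.7e-07). For mt-Rnr1 the groups did not overlap, while for mt-Rnr2 the lowest 18-month library lay inside the range of 2 months. The slope passed for mt-Rnr2 (0.82, SE 0.26, adjusted p = 0.0368) and not for mt-Rnr1 (1.37, SE 0.49, adjusted p = 0.0701). The kit primes on poly(A), and these RNAs carry at most short poly(A) tails.

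Families with related functions are set beside the mitoribosomal genes only by their own values. Of 80 nuclear oxidative phosphorylation subunits 8 fell with age and 0 rose, 20 were lower and 0 higher at 18 months, and the median change at 18 months was -0.27. Of 82 cytosolic ribosomal protein genes 3 fell and 0 rose with age, 9 were higher at 6 months, 6 were lower at 18 months, and the median at 18 months was -0.18. The median change of the cytosolic family at 6 months was 0.49, beside 0.20 for the mitoribosomal genes. At 24 months the medians were -0.07 for the oxidative phosphorylation subunits and 0.08 for the cytosolic family. Of 7 tested mitochondrially encoded messenger RNAs 0 slopes passed, and 5 were higher at 18 months. Over all tested genes 5.22% fell and 5.72% rose with age, and 4.07% were higher at 6 months. At 18 months 8.7% were lower and 10.1% higher. Differences between the families were not tested.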

How the data were processed

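Full-length cDNA (SMART-Seq v4, Nextera XT) was sequenced per the labels' protocols, 24 libraries as paired and 6 as single reads. The sources used here do not say which 6, so read layout, with any sequencer that goes with it, and age cannot be told apart. Tools listed in the submitters' processing notes are HTSeq, MultiQC, STAR 2.5.2b and FastQC 0.11.4, with GRCm38 (mm10) as the build. The authors deposited raw gene counts per library in 3 columns, and the unstranded column was used, since the forward strand held 49.7 to 50.0% of stranded counts. Library sizes exclude 4 summary lines of each file: 2.51 to 6.26% of reads unmapped, 8.64 to 13.3% at several places, 3.82 to 13.1% outside genes and 3.61 to 4.21% over several genes. Symbols, coordinates and lengths came from the GENCODE M21 annotation, which matched 48349 of 48795 identifiers. The submitters' own release is unknown here.

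Genes were filtered in edgeR 4.0.16 (R 4.3.3; minimum count 10, minimum total count 15, grouped by age) and scaled by TMM. Quasi-likelihood fits to all 30 libraries gave the slope on age with sex as a covariate, ages as a factor against 2 months, 3 polynomial terms for curvature, sex, and sex by age. Where nothing says that libraries come from separate mice, p-values measure only the spread between these libraries. P-values were adjusted by Benjamini-Hochberg over all 16844 genes with a threshold of 0.05, and an SE was derived from the F statistic. On simulated counts over 16844 genes the slope fit recovered 36% of 50 genes changed 1.5-fold and 56% of 50 changed 2-fold. Alternatives were DESeq2 1.42.0, size factors, filters, covariates, subsets and 30 fits without 1 library each. No libraries were identical, and counts differed beyond sampling noise in all 75 pairs of the same age (chi-square per degree of freedom 15.96 to 197).

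Genes named with values were up to 12 passing slopes, the 3 highest and 2 lowest per kb and the 4 largest fitted falls and rises in each subunit, up to 3 further genes per contrast or curve and up to 5 per sex test, and Mrps18a, Mrps18b, Mrps18c, Mrps30, Mrps36 and Mrpl12. Lists covered mitoribosome assembly, translation factors, synthetases, transcription, regulators and markers of 10 cell types. The members, lists and rules were chosen with earlier results of these data known. The removal of the 4 libraries with the lowest share of counts in long genes was chosen after seeing the data.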

Additional observations from a re-analysis of the deposited data

Results flagged for a closer look

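In groups of 6 libraries, a library was singled out when its gap to the nearest other library was, as a share of the group's range, above Dixon's 95% critical value. This met 12 of 175 groups checked, and chance alone gives about 1 in 20. Male library 1 of 12 months had the highest marker sums of all 30 libraries for oligodendrocytes (1954 CPM) and for choroid plexus and ependyma (6942 CPM). Its share of unmapped reads, 6.26%, was also the highest, and the part of these measures in its levels was not tested. This library, which had the second-highest mitoribosomal sum of all libraries, was high in 6 of the 12 groups. It had 38.9 CPM for Mrpl52 (other 12-month libraries 13.8 to 23.0), 90.3 for Mrps12 (49.5 to 56.1), 95.3 for Mrps21 (49.1 to 61.9), 26.9 for Mrps22 (8.74 to 11.7), 20.3 for Mrps34 (11.4 to 14.3) and 1657 CPM for the small-subunit sum (1056 to 1254).

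Male library 3 of 2 months was low for Mrpl34, with 28.8 CPM against 37.1 to 39.0 in the other 2-month libraries, and for Mrps25, with 31.9 CPM against 36.5 to 39.2. Female library 3 of 2 months was high for Mrpl53, with 0.633 CPM against 0.157 to 0.279. Female library 3 of 18 months was high for Mrps34, with 11.9 CPM against 7.91 to 8.85. The ratio of the large-subunit to the small-subunit sum was high in male library 1 of 2 months, at 2.15 (others 1.98 to 2.03), and in male library 2 of 24 months, at 2.10 (others 2.00 to 2.03).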

How the results depend on the processing

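No paired analysis was possible because the labels give no replicate numbers that pair libraries across ages. The count of falling slopes was 13 and became 21 with DESeq2, 0 with the share of reads outside genes as a covariate, 4 with the share of counts in long genes as a covariate, 23 without the 2-month libraries, 2 without the 18-month libraries, 0 in males and 1 in females alone. Of all genes 5.22% fell in the main fit. In the other fits, in that order, 7.32, 0.819, 5.2, 3.66, 2.00, 0.383 and 1.58% did. At 6 months the 2 higher genes became 7 with DESeq2, 7 with a stricter filter (5.77% of all genes), 9 and 0 with these covariates, and 0 without the 4 libraries with the lowest share of counts in long genes. Those 4 include all 3 female libraries of 6 months and have the highest sums of the 78 genes, so this loss follows from the choice. At 12 months the 1 higher gene became 2 with DESeq2, 0 with no filter, 2 and 3 with the covariates and 0 without those 4 libraries, and with the second covariate 1 gene (Mrpl52) was lower. Of all genes 2.42, 0.494, 1.72, 2.26 and 1.22% were higher in these fits, and 2.65% were lower with the second covariate. At 18 months the 23 lower genes became 0 and 9 with the covariates (0.41 and 9.43% of all genes) and 32 without the 4 libraries (11.1%). There 1 gene (Mrpl33) was higher with the second covariate (8.5% of all genes) and 1 (also Mrpl33) without the 4 libraries (11.2%). At 24 months 2 were lower with DESeq2, 5 with the second covariate and 5 without the 4 libraries. The 37 curved courses became 24 with no filter, 3 and 6 with the covariates and 14 without the 4 libraries. The share of all genes is given only for the main fit (17.7%). Whether these shifts concern the 78 genes or all genes is therefore not shown. Median slopes were -0.062 (large) and -0.070 (small) with the first covariate, -0.077 and -0.087 with the second, and -0.51 and -0.50 without the 2-month libraries. The slopes of that last fit are also scaled to 22 months, although its libraries cover only 6 to 24 months. The ratio of the sums was 2.30 with places from structures and 2.24 without the 3 most abundant genes of each subunit. The cause of these shifts was not tested.

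Leaving out 1 library at a time gave 4 to 16 falling and 0 to 0 rising slopes, 1 to 16 higher genes at 6 months, 0 to 2 higher at 12 months, 14 to 27 lower at 18 months, 0 to 1 lower at 24 months and 14 to 48 curved courses. The median slope ranged from -0.32 to -0.24 in the large and from -0.30 to -0.22 in the small subunit, and the ratio from 2.01 to 2.02. No fit without 1 library turned the direction of a named gene, but calls were lost. Of the 30 fits, the slope of Mrpl57 lost its call in 22, those of Mrpl44 and Mrps21 in 15 each. That of Mrps5 lost it in 13 and that of Mrps25 in 10. The 18-month call of Mrps5 was lost in 23.

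Among the slopes of named genes, the direction turned with the share of reads outside genes as a covariate for Mrpl11 (0.15), Mrpl2 (0.11), Mrpl23 (-0.34), Mrpl54 (0.21) and Mrps36 (0.021). With the share of counts in long genes it turned for Mrpl11 (0.12), Mrpl54 (0.091), Mrps18b (0.024), Mrps18c (0.053), Mrps22 (0.065) and Mrps36 (0.068). It also turned for Mrpl11 (0.055) and Mrpl23 (-0.26) in males alone, for Mrpl11 without the 4 libraries (0.038), for Mrpl33 (-0.27) and Mrps10 (-0.071) without the 2-month libraries, and for Mrpl54 (0.012) without the 18-month libraries. None of these slopes had passed the threshold. In 97 further values a named gene lost its call and in 8 it gained one, with its direction kept.

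Mrpl53, at 0.344 CPM, had values in reach of what 3 counts give (0.0594 to 0.124 CPM before scaling), so its changes are the least certain. Simulated slopes of 1.5-fold were found in 36% of cases, so a slope that did not pass is not shown to be absent.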
